A study of Bos taurus with 24 samples.

Results

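Of the interferon-induced genes on the array, 7 (ISG15, MX1, IFI6, IFI27, OAS1Z, EPSTI1 and IFI44L) and the chemokine receptor gene CXCR4 are described across 16 bovine ovarian follicles. They were found by the gene symbol in the array's annotation, which gave 9 features of 17418 on the array, 2 for IFI44L and 1 for each of the other genes. After features of 1 symbol were averaged they stood for 8 of 9026 genes measured. The genes were selected on their levels over these 16 follicles, which were known from earlier results of the same arrays. Their levels and the order of the follicles are therefore given as a description, with no test.

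Total RNA came from the largest follicle of each of 16 heifers (Bos taurus), 8 to 12 mm across, and 5 µg per follicle was hybridised to two-colour arrays. Each of 24 arrays carried a different pair of follicles, each follicle was on 3 arrays, and every follicle was labelled with both dyes across its arrays. The labels name each follicle by an identifier and give no age, breed, treatment, time, stage or infection status, so each follicle is its own group with 1 animal and no biological replicate. A follicle holds granulosa cells, theca cells, vessels, blood cells and an oocyte together, and log ratios carry no absolute level, so the presence of a cell type cannot be read from its markers here.

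Interferons are secreted proteins that cells release on sensing viral nucleic acid, and in ruminants the early conceptus secretes interferon tau as the signal of pregnancy. Type I interferons bind the receptor pair IFNAR1 and IFNAR2, whose kinases switch on STAT and IRF factors, and these turn on a broad set of effector genes. ISG15 is a ubiquitin-like protein joined to other proteins, MX1 a GTPase that blocks viral replication, OAS1Z a member of the family that makes oligoadenylates on sensing double-stranded RNA, and IFI6 and IFI27 small hydrophobic membrane proteins. CXCR4 is the receptor of the chemokine CXCL12. It steers leukocytes and stem cells and is also made by endothelial and ovarian somatic cells.

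A level is the log ratio of a follicle to the mean of all 16 follicles, estimated from its arrays and, through the chain of shared follicles, from all others. The error given with it is a standard error (SE) from the disagreement between arrays; it holds no spread between animals. The deposited log ratios were taken as log2, and as Cy5 over Cy3, which is likely from the order of the labels and is stated nowhere. If they are the inverse ratio, the sign of every level, difference and log ratio below turns, and "high" becomes "low". Correlations between genes would stay the same. If they are natural logs, the folds are larger.

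The design of the pairs bears on the order of all 16. The follicles fell into 2 sets of 8, each joined by 11 arrays, and only 2 arrays linked the sets, C10 against 26 and C26 against 33. Follicles 33 and 861 were in one set with C10, C12, C13, H893, 31 and 46, and J980, C35 and C26 in the other with C22, C32, 8, 26 and 27. How high one set stands against the other rests on these 2 linking arrays, so differences between follicles of different sets are less firm than their SE alone says.

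Most of these genes shared their highest follicles. The same 5, J980, 33, 861, C35 and C26, had the 5 highest levels of ISG15, MX1, IFI6, IFI27, OAS1Z, EPSTI1 and CXCR4. IFI44L was the exception, with 4 of these follicles among its 5 highest. Over all 9026 genes measured, exactly 10 had this set of 5 on top, and 92 had 4 of the 5. The 10 were the 7 genes just named and MANSC1, PIGT and ZNFX1. As the 7 were selected on these levels, their place among the 10 supports nothing further. When each interferon-induced gene was scaled to a standard deviation (SD) of 1 and the 7 were averaged, the 5 follicles had means from 0.77 SD in C26 to 1.51 SD in J980. The next was C32 at -0.02 SD, and the lowest was C12 at -1.18 SD. The gap of 0.79 SD between C26 and C32 was the widest in the order, and "the 5" and "the 11" below mean the follicles above and below it. This split was read from the values, so no mean or test is set between its sides.

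ISG15 was at 3.11 ± 0.12 (SE, 3 arrays) in J980, 2.09 ± 0.12 in 861, 1.58 ± 0.11 in 33, 1.33 ± 0.12 in C35 and 0.88 ± 0.11 in C26. Among the 11 it was at -0.05 in H893, -0.14 in C32, -0.26 in C13, -0.57 in 8, -0.97 in C10, -1.03 in C22, -1.09 in 27, -1.13 in both 26 and 31, -1.22 in C12 and -1.41 in 46. The 5 did not overlap the 11, and J980 was at the top, 1.02 above 861, a follicle of the other set. The range from J980 to 46 was 4.52 ± 0.21, a 22.9-fold difference in base 2. Of the 15 steps between neighbours in this order, 5 were larger than 2 SE, among them all steps of the top 5 except 33 to C35. The step from C26 to H893 was 0.93 ± 0.19 and also crosses the sets.

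MX1 was at 3.03 ± 0.11 in J980, 1.80 ± 0.10 in 33, 1.54 ± 0.11 in C35, 1.37 ± 0.10 in C26 and 1.24 ± 0.11 in 861. Among the 11 it ran from 0.07 in C32 and -0.05 in H893, through -0.60 in C13, -0.61 in C22, -0.75 in 31, -0.95 in C10, -0.97 in 8, -0.998 in C12, -1.24 in 27 and -1.34 in 46, to -1.53 in 26. Its range was 4.56 ± 0.12, or 23.6-fold. J980 was 1.23 ± 0.17 above the next follicle, and each step among the other 4 of the 5 was within 2 SE. Below them came a step of 1.18 ± 0.18, from 861 to C32. It crosses the sets, as the step from J980 to 33 does. C32 and H893 then stood 0.55 ± 0.13 above the rest.

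IFI6 had another order among the 5. It was highest in 861 at 2.43 ± 0.14, followed by 33 at 1.996 ± 0.12, J980 at 1.62 ± 0.14, C35 at 1.59 ± 0.13 and C26 at 0.57 ± 0.12. The 11 lay between -0.29 in C32 and -1.37 in 46, and none of the 10 steps among them exceeded 2 SE. C26 stood apart from both sides, 1.02 ± 0.17 below C35 and 0.86 ± 0.15 above C32. The range of 3.80 ± 0.14 is 13.9-fold.

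IFI27 was at 2.31 ± 0.26 in 861, 2.16 ± 0.27 in C35, 1.98 ± 0.27 in 33, 1.73 ± 0.27 in J980 and 1.08 ± 0.29 in C26. C32, at 0.76, and H893, at -0.12, led the 11, and C12 was lowest at -1.94 ± 0.28. Its range of 4.25 ± 0.32 is 19.0-fold, yet no step between neighbours exceeded 2 SE. Its feature gave a value on 22 of 24 arrays, and its 2 gaps left C32 with 1 array and C26 and 8 with 2.

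The spread of these 4 genes between follicles ranked among the widest on the array. By SD over the 16 follicles, IFI27 at 1.45 was the second of 9026 genes, ISG15 at 1.38 the fifth, MX1 at 1.37 the seventh and IFI6 at 1.23 the eighth, against a median of 0.17 for all genes. The residual SD between arrays was 0.13 for MX1, 0.16 for ISG15, 0.19 for IFI6 and 0.42 for IFI27, against a median of 0.18. So MX1, ISG15 and IFI6 were measured with an array error near that of an ordinary gene, and IFI27 with a larger one.

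**Figure D1:**
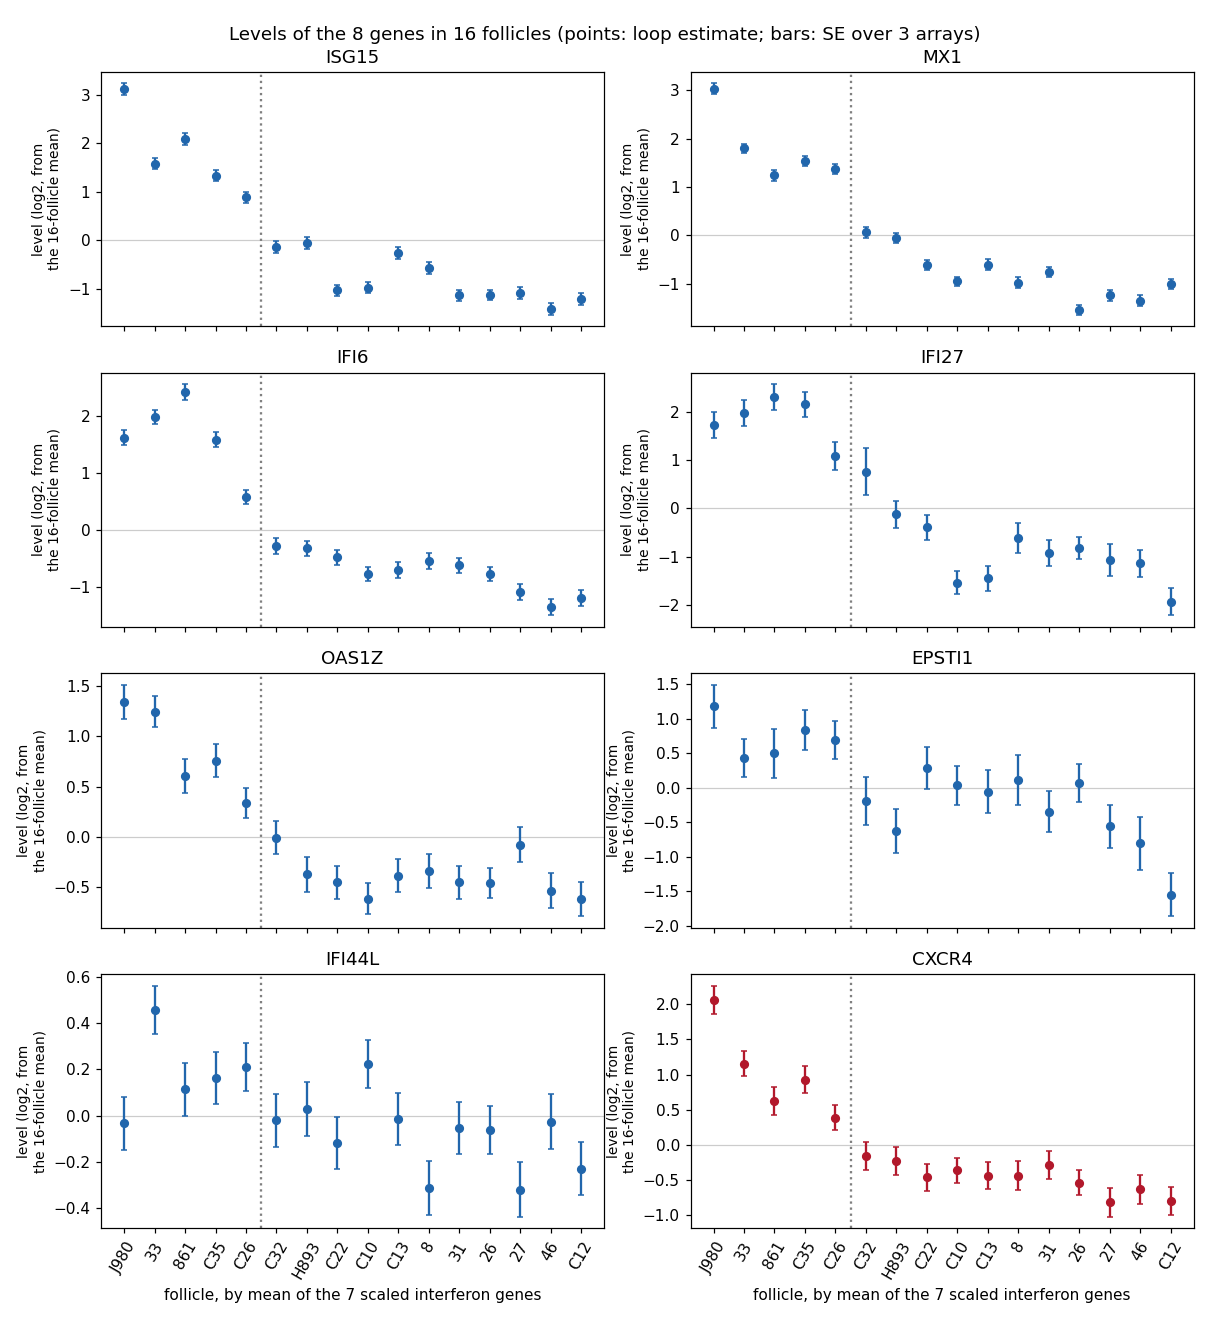
Levels of the 8 genes (y axis, log2 from the mean of 16 follicles; each panel has its own scale) in the 16 follicles, ordered by the mean of the 7 scaled interferon-induced genes. Bars are SE from the array fit (3 arrays a follicle, fewer for IFI27 and EPSTI1 where values are missing) and the dotted line marks the gap between C26 and C32. All panels but IFI44L have the 5 follicles on the left above the 11 on the right, and J980 leads for ISG15, MX1, OAS1Z, EPSTI1 and CXCR4 but not for IFI6 or IFI27.

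The remaining interferon-induced genes spread less. OAS1Z was at 1.34 ± 0.17 in J980, 1.25 ± 0.15 in 33, 0.76 ± 0.16 in C35, 0.61 ± 0.17 in 861 and 0.34 ± 0.15 in C26, and the 11 lay between -0.01 in C32 and -0.62 in C12. Its range of 1.96 ± 0.29 is 3.89-fold, and no step between neighbours exceeded 2 SE. The array carried a feature for the related gene OAS1X as well, which did not follow it: OAS1X was at 0.28 in J980, -0.40 in C35 and 0.34 in 31, and did not pass the test of differences between follicles described below (adjusted p = 0.279). Whether either feature also binds transcripts of the other OAS1 genes was not tested.

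EPSTI1, a gene named for its induction in epithelial cells by stromal cells, was at 1.18 ± 0.31 in J980, 0.84 ± 0.30 in C35, 0.69 ± 0.28 in C26, 0.50 ± 0.36 in 861 and 0.43 ± 0.28 in 33. The 11 ran from 0.29 in C22 to -1.55 ± 0.31 in C12. The 5 were thus highest by a margin of 0.15 only, less than their SE, and C12 was set apart below the rest, 0.74 ± 0.36 under follicle 46. Its feature lacked a value on 2 arrays, and its residual SD of 0.49 was the largest of the 8 genes.

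IFI44L, a cytoplasmic protein made in response to type I interferon, spread least of the 8 genes. Its SD was 0.20, against a median of 0.17 for all genes. It was at 0.46 ± 0.10 in 33, 0.21 ± 0.10 in C26, 0.16 ± 0.11 in C35, 0.11 ± 0.12 in 861 and -0.03 ± 0.12 in J980, and between 0.22 in C10 and -0.32 in 27 among the 11. The sides overlapped, and J980, on top for 5 of the other genes, was in position 10. The range of 0.78 ± 0.18 is 1.72-fold, and by SD the gene ranked 3319 of 9026. Its 2 features differed: the first had its highest level, 0.61, in follicle 33 and the second, 0.32, in C13. Over the 24 arrays their log ratios correlated at r = 0.25, and their residual SDs of 0.25 and 0.34 were close to their SDs between follicles, 0.27 and 0.26.

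CXCR4 was at 2.07 ± 0.20 (SE, 3 arrays) in J980, 1.16 ± 0.18 in 33, 0.93 ± 0.19 in C35, 0.62 ± 0.20 in 861 and 0.38 ± 0.18 in C26. Among the 11 it was at -0.16 in C32, -0.23 in H893, -0.29 in 31, -0.36 in C10, -0.43 in C13, -0.44 in 8, -0.46 in C22, -0.54 in 26, -0.63 in 46, -0.80 in C12 and -0.82 in 27. The 5 and the 11 did not overlap. The range of 2.88 ± 0.21 is 7.37-fold, and by SD, 0.81, the gene ranked 35 of 9026. Only 2 of the 15 steps between neighbours exceeded 2 SE, from J980 to 33 (0.91 ± 0.31) and from C26 to C32 (0.55 ± 0.21), so the order within the 11 is not resolved. The first of these steps crosses the sets and was 0.24 ± 0.48 without the array of C10 against 26 and 1.86 ± 0.61 without that of C26 against 33; the second lies within 1 set.

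J980 and 861 lie in different sets, so the differences between them rest on the 2 linking arrays. With all arrays, J980 minus 861 was 1.02 ± 0.20 for ISG15, 1.78 ± 0.18 for MX1, 1.44 ± 0.34 for CXCR4, 0.73 ± 0.28 for OAS1Z and -0.81 ± 0.23 for IFI6. MX1 kept a difference beyond 2 SE without either linking array, at 2.01 ± 0.42 without C10 against 26 and 1.67 ± 0.27 without C26 against 33. Without C10 against 26, CXCR4 was at 0.36 ± 0.69 and ISG15 at 0.59 ± 0.45, and without C26 against 33 they were at 1.97 ± 0.43 and 1.23 ± 0.28. OAS1Z was within 2 SE without either array (0.78 ± 0.66 and 0.71 ± 0.42). IFI6 was at -1.40 ± 0.50 without the first and -0.52 ± 0.32, within 2 SE, without the second. EPSTI1 turned its sign, from 0.68 ± 0.54 with all arrays to -1.51 ± 0.88 without the first. A higher level in J980 than in 861 was thus beyond 2 SE in each of these fits for MX1 only.

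Within the 11, away from the gap, the genes were also set against each other. The points of these correlations share arrays, since each level leans on the follicles next to it in the design, and they are given with no p. ISG15, MX1, IFI6 and IFI27 correlated with each other at r between 0.58 and 0.82 over the 11 follicles (6 pairs, median 0.75). CXCR4 correlated with these 4 at r between 0.66 and 0.86, the highest with IFI6. With OAS1Z it correlated at r = 0.20 only, with EPSTI1 at 0.50 and with IFI44L at 0.59. With the mean of the 7 interferon-induced genes, CXCR4 correlated at r = 0.90 and rho = 0.83 over the 11, and at r = 0.82 after leaving out C12 and C32, the 2 farthest from the median. IFI44L with the other genes gave r from -0.34 (OAS1Z) to 0.59 (CXCR4), and EPSTI1 gave 0.09 (MX1) to 0.60 (IFI6).

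**Figure D2:**
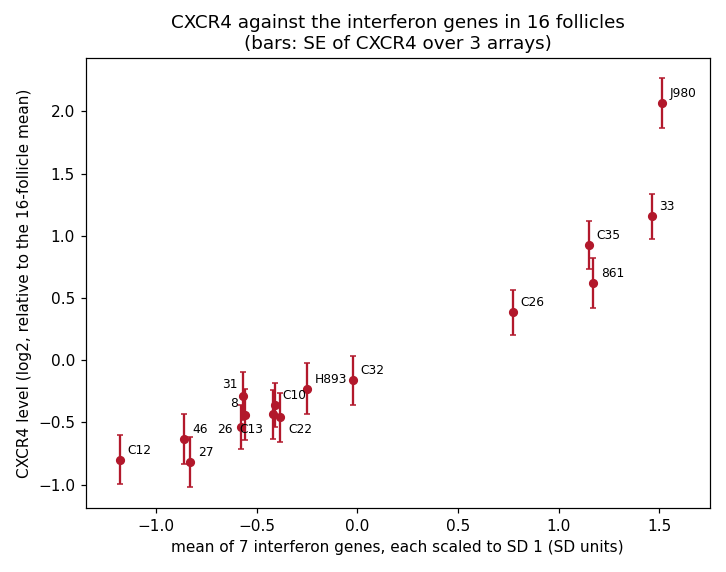
CXCR4 level (y axis, log2 from the mean of 16 follicles; bars, SE from the array fit) against the mean of the 7 interferon-induced genes, each scaled to SD 1 (x axis, SD units), in each of the 16 labelled follicles. The 5 follicles with a mean of 0.77 or more lie at CXCR4 levels of 0.38 to 2.07 and the 11 others at -0.82 to -0.16; within the 11 the points still rise from C12 to C32 (r = 0.90).

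The log ratios of the single arrays behind these levels are given next. The split into the 5 and the 11 came from the same arrays, so their direction was largely fixed by it and supports nothing further. Of the 24 arrays, 13 paired a follicle of the 5 with one of the 11, 10 paired follicles of the 11, and 1 paired C26 with 33. On all 13 joining arrays the follicle of the 5 was the higher for ISG15 (log ratios 1.05 to 4.33), MX1 (1.20 to 4.65), IFI6 (0.74 to 3.56), OAS1Z (0.34 to 2.07) and CXCR4 (0.45 to 2.78). It was higher on all 12 with a value for IFI27 (1.44 to 3.80) and EPSTI1 (0.38 to 1.51), and on 11 of 13 for IFI44L (-0.04 to 0.78). Between follicles of the 11 the absolute log ratios had medians of 0.70 for ISG15, 0.56 for MX1, 0.35 for IFI6, 0.29 for CXCR4 and 0.12 for OAS1Z.

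J980, the highest follicle for most of these genes, was paired with 8, 27 and 26. It was in Cy5 against 8 and 27 and in Cy3 against 26, where the ratio turned over. ISG15 read 3.83, 4.33 and -4.01 on these arrays, MX1 3.89, 4.25 and -4.65, IFI6 2.54, 2.76 and -2.17, and CXCR4 2.44, 2.77 and -2.78. The high level of J980 therefore appeared in both dyes and against 3 different follicles.

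Each array was also set against the value that the other 23 arrays give for the same pair. For ISG15 and MX1 the measured and predicted log ratios had the same sign on 24 of 24 arrays and differed by a median of 0.19, where the log ratios themselves had median sizes of 1.53 and 1.28. IFI6 had the same sign on 23 of 24 (median difference 0.29), IFI27 on 20 of 21 (0.49), OAS1Z on 21 of 24 (0.19), CXCR4 on 17 of 24 (0.41) and EPSTI1 on 16 of 22 (0.72). For IFI27, 1 array, the single one left for C32, had no prediction. For IFI44L the median difference, 0.17, was larger than the median log ratio, 0.12. CXCR4 was thus less repeatable between arrays than ISG15, MX1 or IFI6.

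**Figure D3:**
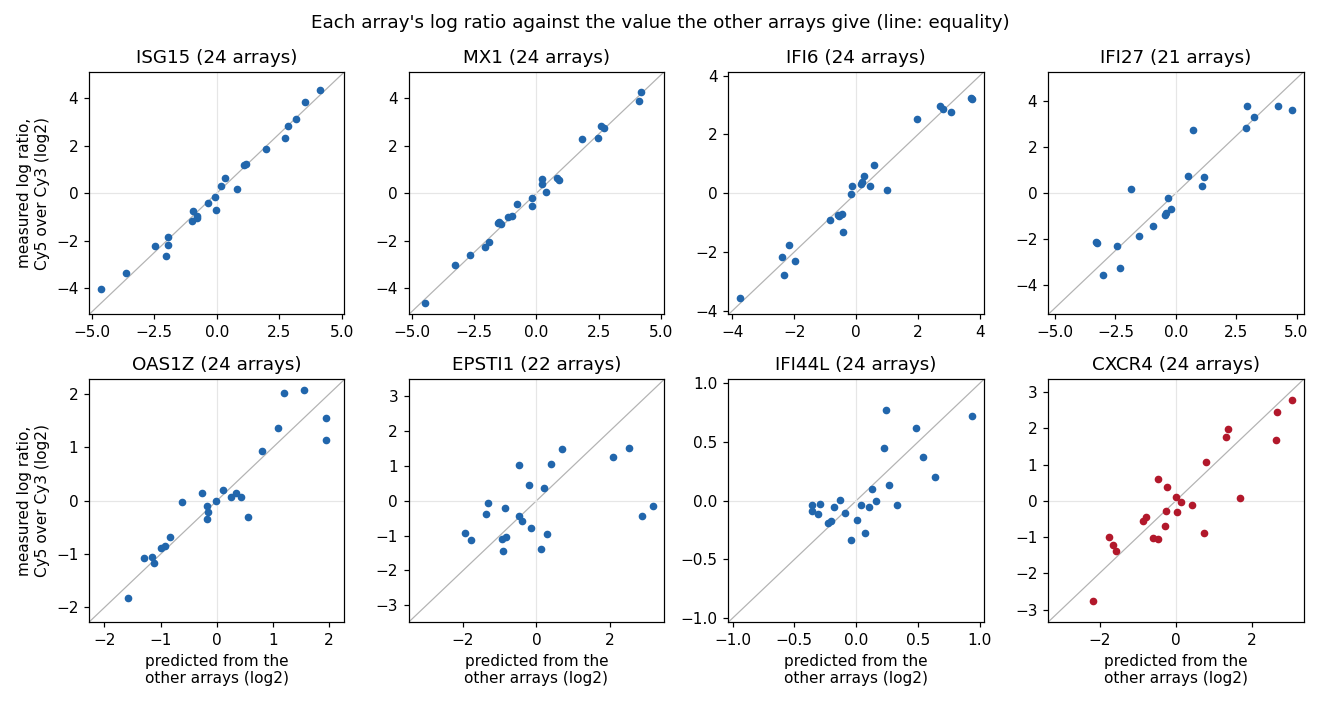
Measured log ratio of each array (y axis, log2, Cy5 over Cy3) against the value predicted from the other arrays (x axis, log2), 1 panel per gene; the diagonal is equality. ISG15 and MX1 lie along the diagonal on all 24 arrays, CXCR4 has 17 of 24 arrays with the predicted sign, and the IFI44L ratios, below 1 in size, scatter about 0.

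The 2 linking arrays did not give one offset between the sets. Each differed from the value that the other arrays predict by -3.31 for EPSTI1, -1.61 for CXCR4, -0.88 for IFI6, -0.64 for ISG15, -0.49 for IFI27, 0.34 for MX1, -0.17 for IFI44L and 0.07 for OAS1Z. For EPSTI1, CXCR4, IFI6 and ISG15 no other array missed by more. Without the array of C10 against 26, only 2 of the 5 follicles were among the 5 highest for EPSTI1, and without that of C26 against 33 only 3. For CXCR4 it was 4 of the 5 without either. The range of EPSTI1 was 1.02 without the first of these arrays and 4.33 without the second, against 2.73 with both.

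Levels within each set do not need the linking arrays, so both were left out. In the first set, 33 and 861 were the 2 highest of 8 for ISG15, MX1, IFI6, IFI27, OAS1Z and CXCR4, and in the second J980, C35 and C26 were the 3 highest of 8 for these and for EPSTI1. For CXCR4 the lower of 33 and 861 was at 0.88 relative to its set's mean and the highest of the other 6 follicles at 0.04. In the second set the lowest of the 3 was at 0.54 and the highest of the other 5 at -0.14. For EPSTI1 in the first set, 33 was at 0.19 and another follicle higher, at 0.87. None of the 8 genes had levels that separated the sets, as 225 of 9026 genes (2.49%) did.

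Other genes of the same pathway were read from lists, with an F test for any difference between the 16 follicles (limma's moderated variances, Benjamini-Hochberg adjusted over all 9026 genes). At an adjusted p under 0.05, 1061 genes (11.8%) differed. The count of genes that differ between follicles was 664 without J980, and 684 or 688 without 1 array that had follicle 33 or follicle 31 in Cy5. All 8 of the selected genes are among the 1061, and since their choice used these values, nothing is read from it. The test asks only whether follicles differ, and a passing gene need not follow ISG15.

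The genes for an interferon and its receptor did not pass. IFNT2, an interferon tau gene, had an adjusted p of 0.31, IFNAR1 0.753 and IFNAR2 0.882. IRF7, the factor that amplifies interferon production, had an adjusted p of 0.315, with levels of 0.53 ± 0.23 in J980 and -0.40 in C12; its r with the mean of the 7 genes was 0.75 over 16 follicles and 0.30 over the 11. Of 31 measured genes for interferons, receptors and signalling, 2 passed (6.45%, against 11.8% of all genes), TLR7 and TLR3, endosomal sensors of single-stranded and double-stranded RNA. TLR7 ran from 0.43 ± 0.10 in 31 down to -0.59 ± 0.10 in J980 (adjusted p = 0.00678). TLR3 ran from 0.56 ± 0.09 in C26 down to -0.54 ± 0.11 in H893 (adjusted p = 0.0102).

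Of 35 other interferon effectors measured, 7 passed (20%), against 11.8% of all genes. UBE2L6, the enzyme that carries ISG15 to its targets, was the strongest, at 0.95 ± 0.18 in J980 and -0.69 ± 0.18 in 31 (adjusted p = 0.00259), and 4 of the 5 follicles were among its 5 highest. PNPT1, a mitochondrial RNA exonuclease, was at 0.53 ± 0.12 in J980 and -0.29 ± 0.12 in C12 (adjusted p = 0.0105), also with 4 of the 5 on top. WARS1, the tryptophan tRNA ligase, reached 0.51 ± 0.14 in C26 and fell to -0.61 ± 0.16 in C13 (adjusted p = 0.0123). C1S and C1R, proteases of the complement cascade, IFI30, a lysosomal thiol reductase, and SERPING1, the inhibitor of C1, also passed, with their highest levels in C10, 33, C35 and C26. Their r with the mean of the 7 genes was low: 0.24, 0.28, 0.15 and 0.37 over 16 follicles. Without J980 the count of passing effectors was 3, and within the 2 sets of follicles it was 4, as it was without any 1 of 8 arrays, those with C35, 31 (2 arrays), 861, C22, 27, C10 or 8 in Cy5. C1R missed the threshold in 30 of 34 alternative settings, SERPING1 in 24 and IFI30 in 20, and UBE2L6 in none of the 34.

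Likeness in the levels over the follicles did not need a passed test. Among the 35, 12 (34.3%) had an r above 0.5 with the mean of the 7 genes over 16 follicles. Of the 9018 genes outside the selected 8, 184 did (2.04%). The median r of the 35 was 0.377 against -0.02, and it was 0.375 for MHC class II genes and 0.367 for pan-leukocyte markers. In these last lists, of 9 genes each, 2 (22.2%) and 0 had an r above 0.5. So did 3 of 16 T and NK cell markers (18.8%) and 2 of 13 antigen presentation genes (15.4%), lists described below. Over the 11 alone, the r of the 12 effectors ran from 0.07 (WARS1) to 0.83 (OASL). These are descriptions that share arrays and the same 16 follicles. XAF1, a proapoptotic interferon target, had the highest r over 16 follicles, 0.80, but its adjusted p was 0.0619 and its SD between follicles 0.24. OASL (r = 0.78) had a residual SD of 1.14 and an adjusted p of 0.578. GBP5, a guanylate-binding GTPase, had an r of 0.70 and an adjusted p of 0.0588.

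Among the other enzymes of the ISG15 pathway, UBE2L6 alone passed. UBA7, the enzyme that activates ISG15, was at 0.27 ± 0.09 in J980 with an r of 0.73 and 4 of the 5 follicles among its 5 highest, and did not pass (adjusted p = 0.133). USP18, which removes ISG15 and restrains the receptor, was at 0.79 in 33 and -0.75 ± 0.27 in J980, with an r of 0.02 and an adjusted p of 0.208. HERC6, a ligase of the HERC family, had an SD of 1.39, as large as that of ISG15, and an adjusted p of 0.126, with values missing on 4 arrays. HERC6 was higher in each of the 8 follicles of the first set (0.60 to 2.30) than in any of the second (-2.10 to 0.04). Within the first set, without the linking arrays, it ran from 1.09 in C10 to -0.61 in H893, and within the second from 1.25 in C26 to -0.89 in J980.

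Of 13 genes for antigen presentation through MHC class I, which interferon raises, 4 passed (30.8%, against 11.8% of all genes). BOLA, the class I heavy chain, was highest in 33 at 0.73 ± 0.11 and lowest in 27 at -0.97 ± 0.12 (adjusted p = 1e-04), with 3 of the 5 follicles among its 5 highest. PSMB9, an immunoproteasome subunit, was highest in H893 at 0.56 ± 0.09 (adjusted p = 0.00271). TAP1, the peptide transporter, was highest in 46 at 0.45 ± 0.10 and lowest in J980 at -0.34 ± 0.10 (adjusted p = 0.00972). B2M, the class I light chain, passed (adjusted p = 0.0122), but its 2 features had r of 0.64 and -0.39 with the mean of the 7 genes. The median r of the list was 0.10. J980, highest for ISG15, had a mean of -0.05 over the 13 genes, position 12 of 16.

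**Figure D4:**
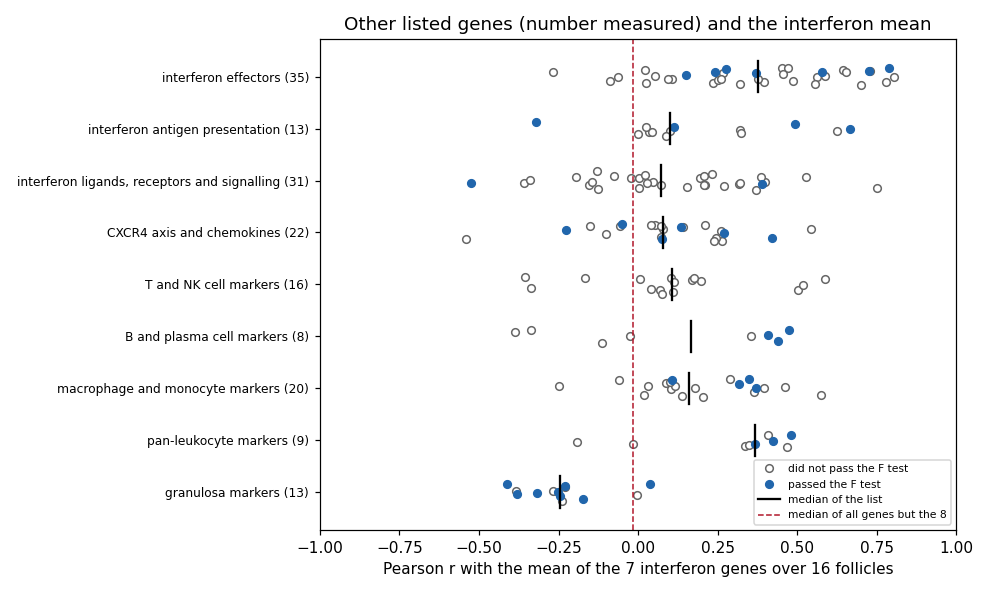
Pearson r of each measured gene with the mean of the 7 interferon-induced genes over the 16 follicles (x axis), by gene list (y axis, number measured); filled points passed the F test, black bars are list medians and the dashed line is the median of all genes outside the 8. The effector median is at 0.38 and the other interferon and CXCR4 lists have medians of 0.07 to 0.10, near the -0.02 of all genes; the granulosa median is at -0.24.

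Of 22 measured genes for chemokines, their receptors and CXCR4 signalling, 6 passed (27.3%, against 11.8% of all genes): CCL2, HIF1A, GNAI3, CCL21, GRK6 and CCL3. HIF1A is the oxygen-sensing factor known to switch on CXCR4. Its level reached 0.50 ± 0.14 in follicle 8 and fell to -0.95 ± 0.14 in J980 (adjusted p = 0.00441). HIF1A was thus 1 of the 421 of 1061 differing genes that were lowest in J980. It correlated with CXCR4 at r = -0.35 over the 16 follicles and 0.06 over the 11. The part of HIF1A in the levels of CXCR4 was not tested. CCL2, a monocyte chemokine, was highest in 33 at 0.45 ± 0.09 and lowest in C12 at -0.44 ± 0.10 (adjusted p = 0.00303); with 1 of its 4 features in place of their mean it did not pass (adjusted p = 0.979). CCL3, another leukocyte chemokine, was highest in J980 at 0.54 ± 0.12 (adjusted p = 0.0302) and missed the threshold in 15 of 34 alternative settings. GNAI3, an inhibitory G protein subunit of the kind that couples to chemokine receptors, and GRK6, a kinase that turns off CXCR4, had r of 0.02 and 0.11 with CXCR4. ACKR3, the other receptor of CXCL12, had an adjusted p of 0.554 and an r of -0.15 with the mean of the 7 genes. The median r of the list with CXCR4 was 0.10, against -0.01 for all genes outside the 8.

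CXCR4 and interferon effectors are made by leukocytes too, so marker lists of other cells are given beside these levels; in a whole follicle, more cells of a type and more RNA per cell cannot be told apart. No T or NK cell marker of 16 and no neutrophil marker of 9 passed limma's moderated F test. At an unadjusted p under 0.05 it was 5 (31.2%) and 3 (33.3%) of them, near the 26.4% of all genes outside the 8. An r above 0.5 with the mean of the 7 genes was seen for 3 T and NK markers, GNLY, NKG7 and PRF1. That is 18.8%, against 2.04% of all genes outside the 8. The median r of these 16 markers was 0.11, and no neutrophil marker had an r above 0.5. Of 8 B and plasma cell markers 3 passed, of 20 macrophage and monocyte markers 4, of 9 pan-leukocyte markers 3, and of 9 MHC class II genes 5. Of the other lists, 1 of 7 erythrocyte and platelet, 1 of 10 endothelial, 4 of 11 theca and stroma, 8 of 13 granulosa, 4 of 10 ovulation and luteal and 1 of 2 oocyte genes passed, where 11.8% of all genes did. The mean level of the pan-leukocyte list was between -0.16 and 0.42 in the 5 follicles and between -0.26 and 0.21 in the 11. For T and NK cell markers the means were -0.13 to 0.16 in the 5 and -0.12 to 0.21 in the 11, and for macrophage and monocyte markers -0.16 to 0.31 and -0.26 to 0.28. All 11 lists of cell type markers overlapped between the 5 and the 11, as did every other list measured, the 35 interferon effectors included. The 5 were split off by the selected genes, and only 10 of 9026 genes had exactly these 5 on top. Overlap on its own therefore does not show whether such cells had a part. C26, the lowest of the 5 for CXCR4, had the highest pan-leukocyte, macrophage and B cell means of all 16. J980, the highest for CXCR4, was in position 8 for the pan-leukocyte list at -0.02. It was in position 3 for T and NK cells at 0.16 and position 1 for neutrophils at 0.13. For MHC class II genes C26, 33, C35 and J980 were in positions 1, 3, 4 and 5, and 861 in position 10. For the pan-leukocyte list C35 and 33 were in positions 3 and 4, and 861 in position 14. For macrophage and monocyte markers J980, 33 and C35 were in positions 4, 5 and 6, and 861 in position 15. The part of such cells in the levels of CXCR4 and the interferon-induced genes was not tested.

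J980 stood apart in much else. Of the 1061 genes that differed, 421 (39.7%) had their lowest level in J980 and 91 their highest. Its granulosa markers had a mean of -0.72, the lowest of 16, with INHBA, the activin subunit, at -2.69 ± 0.17 and FST, the activin-binding protein follistatin, at -2.05 ± 0.10. Its theca and stroma mean, -0.25, was also the lowest of 16. In 861, also among the 5, the granulosa mean was 0.28, position 2 of 16, and INHBA was at 1.04 and FST at 1.11, both the highest of the 16. The part of the granulosa difference in the levels of J980 was not tested, and leaving J980 and its arrays out kept the other 4 on top for ISG15, MX1, IFI6, IFI27, OAS1Z, EPSTI1 and CXCR4.

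The genes with the most alike pattern were taken among those passing the F test, by Pearson r over the 16 follicles. With the mean of the 7 genes these were MANSC1 (r = 0.93), PIGT (0.84), ZNFX1 (0.83), PLAC8B (0.83) and RPL31 (0.82), and within the 11 their r fell to between 0.36 and 0.51. With CXCR4 they were MANSC1 (0.98), ZNFX1 (0.92), PLSCR2 (0.84), RPL31 (0.83) and PLAC8B (0.81), and within the 11 their r was 0.68, 0.41, 0.39, 0.29 and 0.40. MANSC1 was also the most alike gene for ISG15, MX1, IFI6 and OAS1Z, PIGT for IFI27, RPL31 for EPSTI1 and B2M for IFI44L. MANSC1 ranged from 1.30 ± 0.09 in J980 to -0.53 ± 0.08 in 26, ZNFX1 from 1.67 ± 0.31 in J980 to -0.59 ± 0.31 in C12, and PLAC8B from 1.59 ± 0.21 in J980 to -0.99 ± 0.19 in C10. The lowest r with the mean of the 7 genes were those of KIF4A (-0.70), MRPL48 (-0.67) and GART (-0.66), and with CXCR4 those of ROMO1 (-0.71), CMC2 (-0.70) and KIF4A (-0.70). CMC2 and ROMO1 were lowest in J980, and without it their r with CXCR4 was -0.35 and -0.37. ZNFX1 did not pass the F test without J980 (adjusted p = 0.114), and KIF4A and MRPL48 each missed the threshold in 8 of 34 alternative settings.

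For 3 of these genes the pattern came from 1 feature. The first MANSC1 feature was at 2.56 in J980 and -1.01 in 26 (r = 0.94 with the mean of the 7 genes), and the second stayed between -0.21 and 0.26 (r = -0.03). Of 3 PIGT features the third had an r of 0.91 and the others -0.12 and 0.50, and of 3 RPL31 features the third had an r of 0.94 and the others 0.03 and -0.08. Each of the 3 features had the 5 follicles on top. When each gene was represented by 1 feature, the one with values on most arrays and then the smallest residual SD, MANSC1 did not pass the F test (adjusted p = 0.539). Which transcript each feature measures was not tested.

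**Figure D5:**
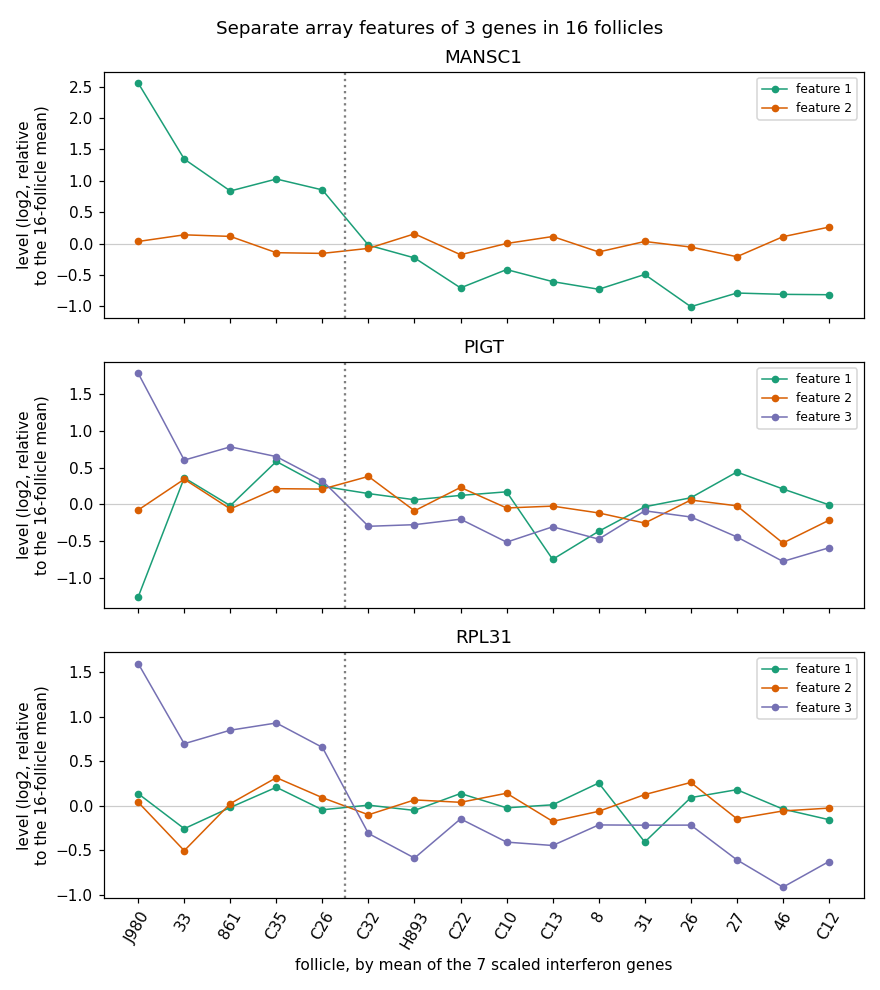
Levels of the separate array features of MANSC1 (2), PIGT (3) and RPL31 (3) (y axis, log2 from the mean of 16 follicles) in the 16 follicles, ordered by the mean of the 7 interferon-induced genes; the dotted line marks the gap between C26 and C32. In each gene 1 feature falls from J980 to the right, with the 5 on top, while the others have no such order.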

How the data were processed

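Log ratios of 24 two-colour arrays were used as deposited by the authors and taken as log2 values; images were read with GenePix Pro 4.0.1.12, per the labels. The sources used here do not name the background correction or the normalization. Array medians were -0.0139 to 0.00639, with 16094 to 17028 values per array. No intensity was given with the ratios, so signal over background is unknown; 3 arrays a follicle limit the precision. Gene symbols came from the platform annotation of 2007 (13605 features with 1 symbol, 829 with several, 2984 with none), of which 13575 matched RefSeq by gene ID. Features with values on at least 20 arrays were averaged by symbol. Per gene, a least-squares fit gave follicle levels and a common dye term (R 4.3.3). An F test over the 16 follicles used limma 3.58.1's moderated variances (8 residual and 3.35 prior degrees of freedom) and Benjamini-Hochberg adjustment over 9026 genes. It was tested on simulated data. Its p-values measure the spread between arrays, not between animals, since each follicle is 1 animal.

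The genes and lists were chosen with earlier results of these data known. Named genes are the 8, up to 6 passing genes of smallest p in each interferon or CXCR4 list, up to 2 in each other list, and the passing genes most and least alike in r. IFNT2, IFNAR1, IFNAR2, IRF7, UBA7, USP18, HERC6, XAF1, OASL, GBP5, OAS1X and ACKR3 fall outside that rule and were chosen after their values were seen. GNLY, NKG7, PRF1 and PSME1 were likewise named after their values were seen. SERPING1, a passing effector beyond the 6 of smallest p, also falls outside it. Alternatives left out arrays or J980, the dye term, moderation or averaging, or rescaled arrays. limma's eBayes F and the fit within the sets of follicles were added after seeing the data, and leaving out either linking array was applied to the differences of J980 after seeing them.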

Additional observations from a re-analysis of the deposited data

How the results depend on the processing

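No paired analysis was possible because the labels give no replicate numbers that groups could share; the 2 follicles of an array are compared within it in every fit. Of genes that differ between follicles, 1061 in the report, there were 608 without the dye term, 664 without J980, 589 without moderated variances and 684 (without 1 array of follicle 33) to 1175 when 1 array was left out. The count of other interferon effectors, 7, was 3 without J980, 4 without moderation, 4 within the 2 sets of follicles, and 4 to 8 when 1 array was left out. Counts for antigen presentation (4 to 6), signalling (2 to 3) and the CXCR4 axis (4 to 6) stayed within 1.5 times in all 34 alternatives. For the levels of the 8 member genes, the median range was 2.83 with arrays scaled to one median absolute deviation, 2.80 without J980 and 2.96 to 4.11 when 1 array was left out. The r of CXCR4 with the interferon mean over the 11 follicles was 0.81 with that scaling, 0.76 with 1 feature per gene, 0.76 without J980 and 0.64 to 0.96 when 1 array was left out. The 5 follicles stayed highest for ISG15, MX1, IFI6 and OAS1Z in 31 of 31 alternatives. They did so for CXCR4 in 29 of 31, IFI27 in 26 of 29 and EPSTI1 in 23 of 30. Where J980 was left out, the other 4 follicles were counted. The F test result was lost for EPSTI1 in 13 of 33 alternatives and for IFI44L in 20 of 34. Some differences of J980 turned their sign without 1 linking array. Without C10 against 26, EPSTI1 went from 0.68 to -1.51 ± 0.88 against 861 and from 0.75 to -0.68 ± 0.63 against 33. Without C26 against 33, J980 minus 33 went from -0.37 to 0.14 ± 0.45 for IFI6. For IFI27 it went from -0.25 to 0.04 ± 0.95. The causes were not tested.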
